A study of Mus musculus with 12 samples.

Results

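Transcripts of 10 aldehyde dehydrogenase genes, Aldh1a1, Aldh1a7, Aldh1b1, Aldh1l1, Aldh2, Aldh3a2, Aldh4a1, Aldh6a1, Aldh7a1 and Aldh8a1, were followed in mouse liver, out of 19938 genes measured under 1 symbol. The rule that picks them names gene symbols and uses no measured value, but the 10 were chosen with earlier results of these data known. Each of the 10 was read by 1 row of the array table. Livers came from 12 fed male C57BL/6J mice, 6 given an adenovirus for ChREBP and 6 given one for GFP through the tail vein, and they were taken 3 weeks later. ChREBP, encoded by Mlxipl, is the transcription factor that switches on glycolytic and lipogenic genes when sugar is plentiful, and GFP is a fluorescent control protein, so that every animal had received a virus. The labelled age of 8 weeks may be that at injection. The labels call the overexpression specific to the liver and describe the animals of a group as biological replicates. No source used here states which promoter drives the vector or the species of its ChREBP.

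Aldehyde dehydrogenases oxidise aldehydes to carboxylic acids with NAD+ or NADP+, and the liver is rich in them because alcohol, retinoid, lipid, amino acid and folate metabolism all pass through aldehydes. Aldh3a2 sits in the endoplasmic reticulum and oxidises long chain fatty aldehydes. Aldh1l1 is a cytosolic folate enzyme that removes one-carbon units from 10-formyltetrahydrofolate. Aldh4a1 and Aldh6a1 are mitochondrial enzymes of proline and of valine breakdown, Aldh7a1 serves lysine breakdown, and Aldh8a1 serves the kynurenine pathway of tryptophan. Aldh2 clears acetaldehyde in mitochondria, where Aldh1b1 is its close relative, and Aldh1a1 oxidises retinal in the cytosol, with Aldh1a7 as a close rodent relative.

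Promoter windows of 300 bases around annotated start sites (RefSeq, build GRCm38.p6) were used for 8 of the members, 10 windows in all. Those of Aldh2 and Aldh7a1 were not used. CACGTG, the E-box to which ChREBP and related factors can bind, was searched on both strands. It lay in the window of Aldh3a2 alone among the 10, against 7.15% of all 32851 windows, and began at position -30 counted from the start site. The antioxidant response element core TGACNNNGC (12.4% of all windows) and the longer carbohydrate response element, which holds a pair of E-box-like parts and can overlap an E-box (0.119% of all windows), were found in none of the 10. The Aldh3a2 window was also rich in GC, at 61.7% with 21 CpG, against medians of 52.7% and 7 over all windows. It is shown because Aldh3a2 was the one member that rose, with the E-box in capitals. Beside it is the window of Aldh1l1, the member with the largest fall. Like all the other windows used, that of Aldh1l1 held no searched motif. Whether the E-box has a part in the rise of Aldh3a2 was not tested. The Aldh3a2 window is chr11:61267137-61267436 on the minus strand, and the Aldh1l1 window is chr6:90550543-90550842 on the plus strand.
Aldh3a2: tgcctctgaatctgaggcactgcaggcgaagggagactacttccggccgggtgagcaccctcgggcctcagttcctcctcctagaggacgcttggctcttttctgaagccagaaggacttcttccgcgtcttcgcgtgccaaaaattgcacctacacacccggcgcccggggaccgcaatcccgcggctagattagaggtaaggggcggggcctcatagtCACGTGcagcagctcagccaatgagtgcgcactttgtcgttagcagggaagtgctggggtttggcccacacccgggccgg
Aldh1l1: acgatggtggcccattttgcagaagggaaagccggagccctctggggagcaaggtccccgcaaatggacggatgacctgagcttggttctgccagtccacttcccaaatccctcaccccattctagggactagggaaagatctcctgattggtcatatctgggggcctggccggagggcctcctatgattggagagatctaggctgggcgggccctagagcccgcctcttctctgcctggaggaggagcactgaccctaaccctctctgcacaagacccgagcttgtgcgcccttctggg

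Aldh1a1 and Aldh1a7 are neighbours on chromosome 19, and their windows are shown as those of close relatives. Of each window 250 bases lie before the start site, so its sequence does not tell how well probes separate the 2 transcripts. Identity of the transcripts or proteins was not computed. The window at the downstream one of 2 Aldh1a1 start sites, chr19:20601718-20602017 on the plus strand, and that of Aldh1a7, chr19:20727507-20727806 on the minus strand, were identical at 72.4% of aligned columns. They shared an unbroken run of 65 bases that began at position -94 in each and is given in capitals.
Aldh1a1: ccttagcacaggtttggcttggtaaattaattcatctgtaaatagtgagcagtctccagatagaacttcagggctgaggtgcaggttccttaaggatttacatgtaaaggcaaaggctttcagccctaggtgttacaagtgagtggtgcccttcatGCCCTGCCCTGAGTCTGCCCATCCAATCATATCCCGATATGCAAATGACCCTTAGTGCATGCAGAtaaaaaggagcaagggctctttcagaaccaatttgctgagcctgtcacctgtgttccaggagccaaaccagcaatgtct
Aldh1a7: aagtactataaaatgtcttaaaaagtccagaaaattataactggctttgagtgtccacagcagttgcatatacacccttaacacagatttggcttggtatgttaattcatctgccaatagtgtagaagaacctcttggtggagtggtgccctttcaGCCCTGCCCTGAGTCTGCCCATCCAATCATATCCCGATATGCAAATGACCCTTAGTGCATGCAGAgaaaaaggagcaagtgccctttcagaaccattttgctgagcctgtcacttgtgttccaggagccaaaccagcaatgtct

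Across genes, pairs of arrays correlated at 0.979 to 0.995 within a group and at 0.971 to 0.986 between groups. Mlxipl averaged 10.89 ± 0.08 on the log2 scale in ChREBP livers and 9.32 ± 0.23 in GFP livers (SD, n = 6 each), and the array does not tell vector transcript from that of the mouse gene. Of 7 hepatocyte markers 6 were lower in ChREBP livers, and their summed level was 15.28 to 15.40 on ChREBP arrays, against 15.49 to 15.61 on GFP arrays. None of 7 pancreatic acinar markers passed the test, but their summed level reached 15.04 on ChREBP 4, 14.84 on ChREBP 5 and 10.27 on ChREBP 2, and was 8.69 to 9.31 on the other ChREBP arrays, against 8.70 to 8.97 on GFP arrays. That of 5 adipocyte markers (1 higher, 1 lower) was highest on ChREBP 6 (10.08) in the ChREBP group and on GFP 4 (9.54) and GFP 6 (9.37) in the GFP group. Over all genes, 13.3% were higher in ChREBP livers and 13.7% lower by limma, with the adjusted p required to be under 0.05.

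Of the 10 members, 6 passed that test, with 1 higher and 5 lower in ChREBP livers. Aldh3a2 rose, the amino acid and folate members Aldh1l1, Aldh6a1, Aldh8a1, Aldh4a1 and Aldh7a1 fell, and the acetaldehyde and retinal members Aldh2, Aldh1b1, Aldh1a1 and Aldh1a7 did not pass. In each of the same 6 genes the arrays of the groups did not overlap, 1 higher and 5 lower, where 8.33% of all genes were higher and 6.83% lower without overlap. The changes were moderate. Their median size was 0.32 on the log2 scale over the 10 members, against 0.114 over all genes and 0.325 over the genes that passed, and the median signed difference (ChREBP minus GFP) was -0.19 over the members and -0.04 over all genes. With a 1.5-fold minimum and no adjustment of p (still under 0.05), where 4.1% of all genes were higher and 1.6% lower, 1 member remained, Aldh3a2. Its difference of 0.600 lay just above that minimum, 0.585 on the log2 scale, and was below it with some other normalizations or arrays left out. Fewer hepatocytes and less transcript per hepatocyte cannot be told apart in whole liver.

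**Figure D1:**
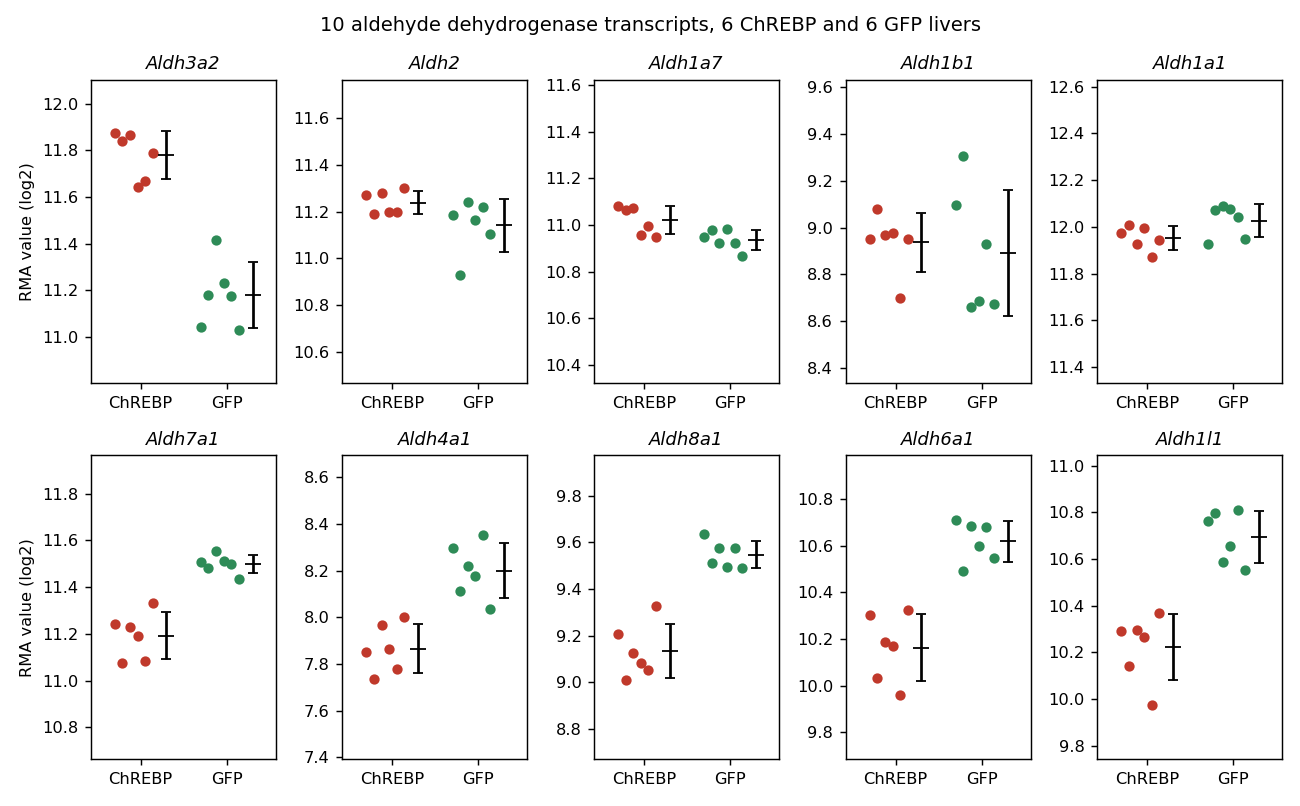
RMA values (log2) of the 10 members in 6 ChREBP livers (red points) and 6 GFP livers (green points), with the mean and SD as black bars. All panels span the same height on the log2 scale. The groups are apart in Aldh3a2, higher in ChREBP livers, and in Aldh7a1, Aldh4a1, Aldh8a1, Aldh6a1 and Aldh1l1, lower in ChREBP livers.

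Aldh3a2, the fatty aldehyde dehydrogenase, whose loss in humans lets fatty alcohols and aldehydes build up, ran from 11.64 to 11.87 with a median of 11.81 on ChREBP arrays, against 11.03 to 11.41 with a median of 11.18 on GFP arrays. A gap of 0.23 lay between the groups. The difference was 0.60 (SE 0.07, 95% interval 0.45 to 0.75), or 1.52-fold, with an adjusted p of 1.79e-05. Within the ChREBP group the 2 lowest arrays were ChREBP 4 (11.64) and ChREBP 5 (11.67), those with the high acinar transcripts, and without them the difference was 0.66. Its chromosome 11 neighbour Aldh3a1, a family member best known from cornea, averaged 5.03 ± 0.15 in ChREBP livers and 5.44 ± 0.74 in GFP livers (SD, n = 6 each). GFP 6 alone stood at 6.94, and Aldh3a1 did not pass (-0.40, adjusted p = 0.282). Apart from GFP 6 its values were below the array medians of 5.96 to 6.05, so its signal over background is unknown.

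The folate enzyme gene Aldh1l1 ran from 9.97 to 10.37 with a median of 10.28 on ChREBP arrays, against 10.55 to 10.81 with a median of 10.71 on GFP arrays. The fall was the largest among the members, -0.47 (SE 0.07, adjusted p = 0.000199), which left 0.721 of the GFP level. Aldh6a1, for the semialdehyde step of valine and thymine breakdown, ran from 9.96 to 10.33 with a median of 10.18 on ChREBP arrays, against 10.49 to 10.71 with a median of 10.64 on GFP arrays. Its difference was -0.45 (SE 0.07, adjusted p = 0.000174), and no array of one group reached into the other.

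Aldh8a1, which oxidises an unstable semialdehyde on the side branch of tryptophan breakdown that leads away from NAD+, ran from 9.01 to 9.33 with a median of 9.10 on ChREBP arrays, against 9.49 to 9.64 with a median of 9.54 on GFP arrays. It differed by -0.41 (SE 0.06, adjusted p = 7.86e-05), to 0.751 of the GFP level. Aldh4a1, which turns pyrroline-5-carboxylate from proline into glutamate, ran from 7.73 to 8.00 with a median of 7.86 on ChREBP arrays, against 8.03 to 8.35 with a median of 8.20 on GFP arrays. This was the closest of the separations, with 0.03 between the highest ChREBP array and the lowest GFP array, and a difference of -0.33 (SE 0.06, adjusted p = 0.00131). Aldh7a1, or antiquitin, needed for lysine breakdown, ran from 11.07 to 11.33 with a median of 11.21 on ChREBP arrays, against 11.43 to 11.56 with a median of 11.50 on GFP arrays. The GFP livers were close to each other (SD 0.04), and the difference was -0.31 (SE 0.05, adjusted p = 0.000372).

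The 5 members that fell shared some of the arrays at the ends of their groups. ChREBP 6 was the highest ChREBP array in all 5, ChREBP 2 the lowest in 3 and ChREBP 5 the lowest in 2. GFP 6 was the lowest GFP array in 4, while the highest was GFP 1 in 2, GFP 5 in 2 and GFP 3 in 1. On average over the 5, ChREBP 6 stood 0.16 above its group mean and GFP 6 stood -0.10 from its own. The exact two-sided permutation test gave p = 0.00216, the smallest that 924 assignments can give, for each of the 6 members that passed. Groups that do not overlap always give this smallest value, so it adds nothing to the lack of overlap. Without ChREBP 4 and ChREBP 5 the differences of the 5 were -0.28 to -0.42, and without ChREBP 6 and GFP 6 they were -0.35 to -0.53, with 1 higher and 5 lower in either case.

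**Figure D2:**
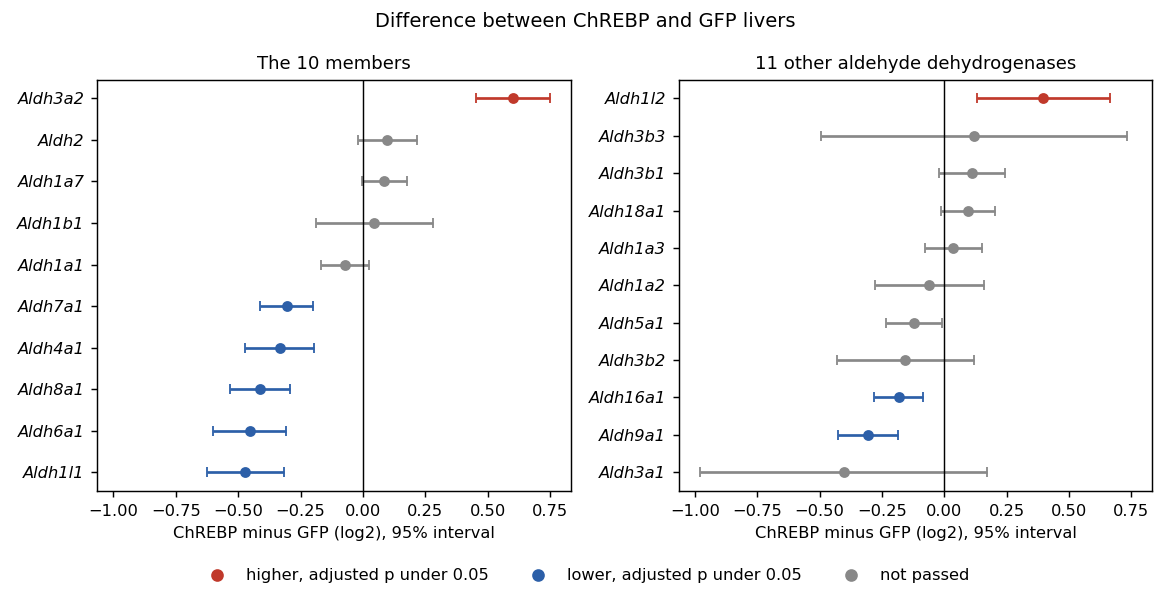
Difference in RMA value between ChREBP and GFP livers (log2, ChREBP minus GFP) for the 10 members and 11 other aldehyde dehydrogenases, with limma's 95% intervals, red where higher, blue where lower and grey where the test was not passed. Among the members the interval of Aldh3a2 lies right of 0 and those of Aldh7a1, Aldh4a1, Aldh8a1, Aldh6a1 and Aldh1l1 lie left of 0.

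The hepatocyte markers moved with the fall, by a median of -0.25 on the log2 scale. When each array was centred on the mean of the 7 markers, Aldh3a2 was higher by 0.83 and Aldh1l1 (-0.24), Aldh6a1 (-0.22) and Aldh8a1 (-0.18) still passed as lower, while Aldh4a1 (-0.10, adjusted p = 0.192) and Aldh7a1 (-0.07, adjusted p = 0.215) did not. That centring moved the median difference of all genes by 0.23, to 0.19, and Aldh1a1 (0.16), Aldh1a7 (0.32), Aldh2 (0.33) and Aldh1b1 (0.28) then passed as higher. The markers are themselves liver genes that ChREBP may regulate, which was not tested. Of 6 periportal hepatocyte markers 5 were lower, and their summed level was 14.19 to 14.42 on ChREBP arrays, against 14.65 to 14.72 on GFP arrays, and of 10 pericentral markers, Cyp2e1 among them, 6 were lower and 1 higher, with sums of 13.92 to 14.18 on ChREBP arrays, against 14.22 to 14.39 on GFP arrays. All 8 Kupffer cell and macrophage markers passed, 4 higher and 4 lower, with sums of 11.93 to 12.28 on ChREBP arrays, against 11.68 to 12.05 on GFP arrays. The macrophage activation marker Gpnmb (2.17) and the resident Kupffer cell marker Timd4 (-1.59), singled out for their size, differed most in each direction. Of 6 T and NK cell markers 5 were higher, with sums of 9.24 to 10.12 on ChREBP arrays, against 8.26 to 8.89 on GFP arrays. The part of these cells in the differences was not tested.

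Aldh2, the main acetaldehyde dehydrogenase, ran from 11.19 to 11.30 with a median of 11.23 on ChREBP arrays, against 10.93 to 11.24 with a median of 11.18 on GFP arrays. The groups overlapped, and 3 of 6 ChREBP arrays lay above the highest GFP array. The difference of 0.10 (95% interval -0.02 to 0.21) did not pass over all genes (adjusted p = 0.198), though its own exact two-sided permutation test gave p = 0.0498. Aldh1b1 ran from 8.70 to 9.08 with a median of 8.96 on ChREBP arrays, against 8.66 to 9.31 with a median of 8.81 on GFP arrays. Its values were spread widest among the members, with an SD of 0.27 in the GFP group, and the interval of its difference, -0.19 to 0.28, was the widest of the 10. The difference was 0.05 (adjusted p = 0.783).

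Aldh1a1, the cytosolic retinal dehydrogenase, ran from 11.87 to 12.01 with a median of 11.96 on ChREBP arrays, against 11.93 to 12.09 with a median of 12.06 on GFP arrays. Its difference of -0.07 (95% interval -0.17 to 0.02, adjusted p = 0.238) did not pass. Aldh1a7 ran from 10.95 to 11.08 with a median of 11.03 on ChREBP arrays, against 10.86 to 10.98 with a median of 10.93 on GFP arrays, and 4 of 6 ChREBP arrays lay above the highest GFP array. Its difference was 0.08 (adjusted p = 0.147). It passed as higher when quantile normalization was repeated over the deposited values (0.12, adjusted p = 0.0281).

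The relatives were then compared within each array, which removes any scaling that an array applies to all genes alike. Aldh1a1 minus Aldh1a7 was 0.932 ± 0.072 in ChREBP livers and 1.09 ± 0.061 in GFP livers (SD, n = 6 each). The level of that contrast holds the difference between probes, so only its change can be read, which was -0.16 (SE 0.039), with p = 0.0130 by the exact two-sided permutation test after adjustment over the 2 pairs compared. Thus the array signals of the 2 genes differed in their change, although neither passed limma's test over all genes. By the exact two-sided permutation test without adjustment, Aldh1a7 alone gave p = 0.0216 and Aldh1a1 alone p = 0.0628. As probes for such close relatives can take up each other's transcript, the split between them is uncertain. Aldh2 minus Aldh1b1 was 2.30 ± 0.13 in ChREBP livers and 2.25 ± 0.35 in GFP livers (SD, n = 6 each), a change of 0.05 (SE 0.15, adjusted p = 0.786 by the same exact test), and turned to -0.07 without GFP 2.

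**Figure D3:**
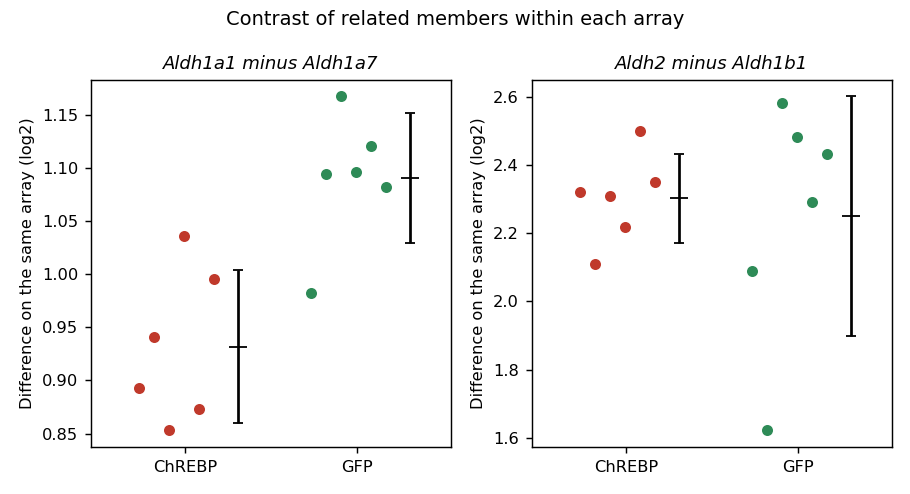
Difference between 2 members on the same array (log2), Aldh1a1 minus Aldh1a7 on the left and Aldh2 minus Aldh1b1 on the right, for 6 ChREBP livers (red) and 6 GFP livers (green), with the mean and SD as black bars; the panels have different scales. The Aldh1a1 contrast averages 0.932 in ChREBP livers and 1.09 in GFP livers, and the Aldh2 contrast overlaps widely.

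Of the 11 other aldehyde dehydrogenases measured, 1 rose and 2 fell, a count close to the 13.3% higher and 13.7% lower of all genes. Aldh16a1, a divergent family member, fell by 0.18 (adjusted p = 0.00767). Aldh9a1, which oxidises the aldehyde precursor of carnitine, spanned 9.41 to 9.63 on ChREBP arrays, against 9.68 to 9.98 on GFP arrays, and fell by 0.31 (SE 0.06, adjusted p = 0.000951). Centring on the hepatocyte markers left -0.07 (adjusted p = 0.294) for Aldh9a1, and Aldh16a1 then stood at 0.05 (adjusted p = 0.398). Aldh1l2, the mitochondrial counterpart of Aldh1l1, was the one that rose, by 0.40 (SE 0.12, adjusted p = 0.0297), and its highest arrays were ChREBP 4 (5.96) and ChREBP 5 (5.60). Its GFP values, 4.88 to 5.20, were below the array medians of 5.96 to 6.05, and with no detection calls its signal over background is unknown. Without those arrays the rise in Aldh1l2 was 0.21 (adjusted p = 0.0432), and the call was lost without ChREBP 5 alone (0.36) or GFP 1, GFP 2, GFP 4 or GFP 5 (0.37 to 0.39), with adjusted p from 0.0512 to 0.0612. The methods' analysis of variance (adjusted p = 0.0634) and a fit over all rows (adjusted p = 0.0535) did not keep that call either. The other 8 did not pass, with differences of -0.12 in Aldh5a1 of the GABA route, 0.10 in Aldh18a1 of proline synthesis, 0.11 in Aldh3b1, 0.12 in Aldh3b3, -0.16 in Aldh3b2, 0.04 in Aldh1a3, -0.06 in Aldh1a2 and -0.40 in Aldh3a1. Aldh1a2, Aldh1a3 and, outside GFP 6, Aldh3a1 also lay below the array medians, so their signal over background is unknown as well.

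The enzymes around each member were counted in lists drawn from textbook pathways. Their counts stand beside 13.3% higher and 13.7% lower over all genes, and 6 of 7 hepatocyte markers were lower too. Whether the falls are particular to these pathways was not tested. Around Aldh8a1, all 7 genes of tryptophan and kynurenine breakdown fell, with a median difference of -0.33, among them Afmid (-0.67), the kynurenine formamidase gene, Haao (-0.62), Tdo2 (-0.33), the first enzyme gene of the route, and Qprt (-0.29), which leads to NAD+. Around Aldh7a1 and Aldh4a1, 8 of 9 genes of lysine and proline breakdown fell and 0 rose (median -0.33). Aadat, an aminotransferase gene of lysine breakdown, differed most (-1.19), followed by Prodh (-0.85), whose product feeds Aldh4a1, Aass (-0.62), which opens the main lysine route, and Pipox (-0.45) of the pipecolate route. Dhtkd1 was the remaining gene, at -0.28 (adjusted p = 0.0880), and leaving out GFP 6 brought it past the threshold (-0.35, adjusted p = 0.0317).

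Around Aldh6a1, 10 of 19 genes of branched chain amino acid breakdown fell and 1 rose (median -0.21). Acadsb (-1.02), an acyl-CoA dehydrogenase gene, Pccb (-0.55) for a propionyl-CoA carboxylase subunit and Hibadh (-0.50), whose enzyme makes the substrate of Aldh6a1, were lower, and Bckdk (0.58), the kinase that holds the branched chain dehydrogenase complex inactive, was higher. Around Aldh1l1, 6 of 10 folate genes fell and 2 rose (median -0.25). The fallen ones included Shmt2 (-0.58) and Shmt1 (-0.49), the serine hydroxymethyltransferase genes, and Mthfd1 (-0.52). The pair that rose was Mthfd1l (0.95), which makes formate in mitochondria, and Tyms (0.33), for thymidylate synthase, while Mthfd2 (0.28) and Mtr (0.03) did not pass. In choline and betaine oxidation, which yields one-carbon units to the same folate pool, Sardh (-0.48), Bhmt2 (-0.45), Gnmt (-0.35) and Dmgdh (-0.30) fell among 6 genes, with Chdh at 0.10 and Bhmt at -0.05.

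The lists around the other members were counted in the same way. Among 6 genes that make or pass on fatty aldehydes, the substrates of Aldh3a2, Hacl1 (-0.55) and Phyh (-0.39) of phytanic acid alpha-oxidation and Agmo (-0.34), which cleaves ether lipids, fell, and Sgpl1 (-0.12), Far2 (0.13) and Far1 (0.25) did not pass (median -0.23). Of 9 genes of ethanol and formaldehyde oxidation 5 fell (median -0.18), namely Adh4 (-0.68), Adh7 (-0.43), Adh5 (-0.23), which oxidises formaldehyde bound to glutathione, Cat (-0.21) for catalase and Cyp2e1 (-0.14). The Cyp2e1 call was lost without ChREBP 2 (-0.13), GFP 2 (-0.12), GFP 4 (-0.14) or GFP 5 (-0.14), at adjusted p from 0.0540 to 0.0623. Adh1 (-0.0049), Esd (0.05), Acss1 (0.17) and Acss2 (-0.18) did not pass, though Acss1 did without ChREBP 1 (0.23, adjusted p = 0.0127). Without ChREBP 4 and ChREBP 5, 3 of the 9 passed as lower. Of 18 retinoid genes 4 fell and 0 rose (median -0.08), where 13.3% of all genes were higher and 13.7% lower. Calls in both directions together were fewer than those shares would make, though the share that fell was larger than 13.7%. The 4 that fell were the retinol dehydrogenase genes Rdh7 (-0.55) and Rdh11 (-0.45), the receptor gene Rxra (-0.40) and Rbp4 (-0.15), the retinol carrier of plasma.

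Centring on the hepatocyte markers changed these counts. It left 2 of 7 tryptophan genes and 4 of 9 lysine and proline genes lower with 0 higher, 6 of 19 branched chain genes lower with 5 higher, 3 of 10 folate genes lower with 4 higher, and 2 of 6 choline genes lower with 2 higher. Of the ethanol and formaldehyde genes Adh4 alone (-0.44) was then lower, and Adh1 (0.23), Esd (0.28) and Acss1 (0.41) were higher. Of the fatty aldehyde genes Hacl1 (-0.31) and Phyh (-0.16) stayed lower, Agmo lost its call (-0.10, adjusted p = 0.223) and Far2 (0.37) was higher. Of the retinoid genes Rdh7 (-0.31) stayed lower, Rxra (-0.16, adjusted p = 0.0725), Rdh11 (-0.22, adjusted p = 0.109) and Rbp4 (0.08, adjusted p = 0.112) lost their calls, and 7 were higher.

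**Figure D4:**
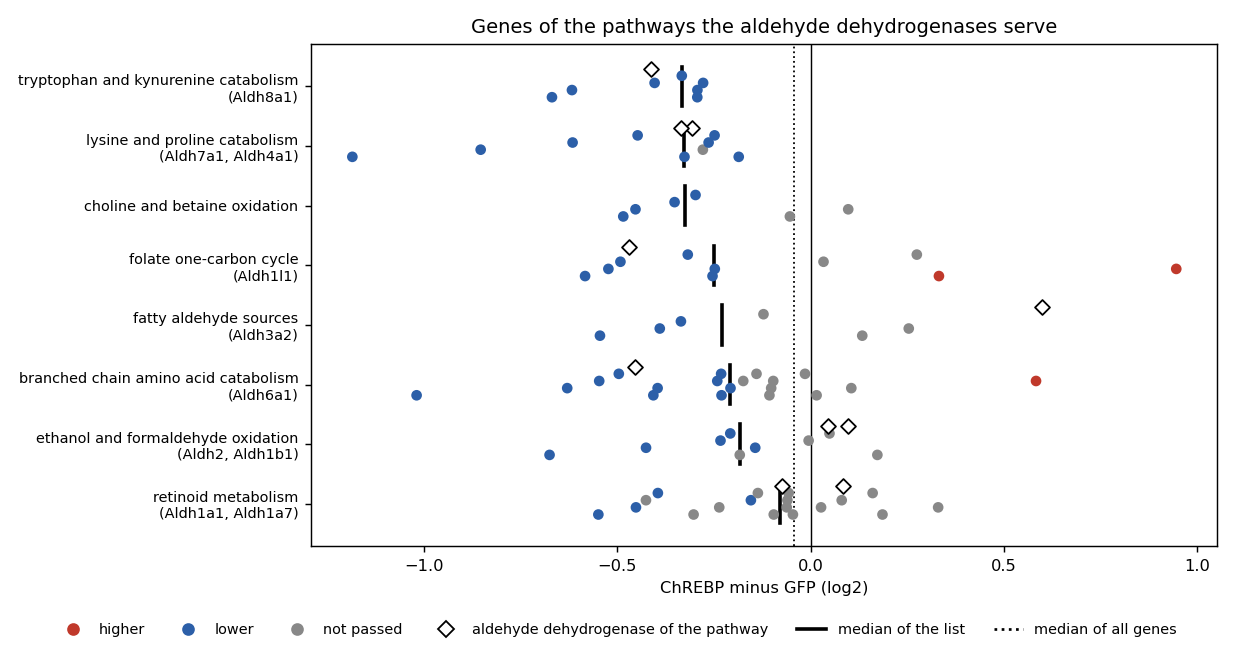
Difference in RMA value (log2, ChREBP minus GFP) of each gene in 8 pathway lists, coloured red where higher, blue where lower and grey where limma's test was not passed, with black bars for the list medians and a dotted line for the median of all genes (-0.04). Open diamonds mark the aldehyde dehydrogenase of the pathway, which lies among the fallen genes for Aldh8a1, Aldh7a1, Aldh4a1, Aldh1l1 and Aldh6a1, and opposite the fallen genes for Aldh3a2.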

How the data were processed

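The values used were log2 values that the authors had deposited as a single table over 12 arrays. RMA and Partek stand in the submitters' processing notes with no version, so background correction, quantile normalization and probe summary had been done upstream, and small shifts shared by all genes cannot be recovered. RNA had been amplified and biotin-labelled with Nugen reagents for Affymetrix microarrays. Of 35556 rows, 21789 carried 1 symbol in the platform annotation and gave 19938 genes, each represented by its brightest row. Array medians were 5.96 to 6.05. No filter on dim genes was applied, no detection calls were used, and the number of arrays limits the precision. No array batch was tested, as the sources used here give none.

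Differences are ChREBP minus GFP, fitted by lmFit and eBayes of limma 3.58.1 (R 4.3.3) and tested two-sided with Benjamini-Hochberg adjustment over all 19938 genes and a threshold of 0.05. Single members and pairs were tested by exact permutation in SciPy 1.17.1. The fit was tested on simulated data with 200 changed genes. Limma's p-values set the difference of the groups against the spread between livers within them, and so rest on these 12 livers. Replicate numbers did not pair the arrays. Summed marker levels are log2 of the sum of the markers' linear values.

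Members and gene lists were chosen with earlier results of these data known, and lists are described by counts without a test. Named were all 10 members, the other aldehyde dehydrogenases, Mlxipl and, per list, the up to 4 called genes with the smallest p and those needed to complete a count of 5 or fewer. Alternatives were other normalizations, filters, moderations, the methods' analysis of variance, the replicate block and arrays left out. Centring on hepatocyte markers and normalizing over 1 row per gene were added after seeing the data. Some genes of these lists are not reported here. Promoter windows came from RefSeq (GRCm38.p6), and windows of Aldh2 and Aldh7a1 were not used.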

Additional observations from a re-analysis of the deposited data

Results flagged for a closer look

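In 5 of 44 combinations of gene and group, over the 21 aldehyde dehydrogenases and Mlxipl, the highest or lowest array stood far from the rest of its group. Chance flags about 1 in 20. Among the 20 combinations of the members it was 1, Aldh1b1 on ChREBP 5, where the value was 8.70 and the nearest other ChREBP array was 8.95. The other 4 were high values of Aldh3b3 on ChREBP 5 (9.60, next 8.23), of Aldh1a2 on GFP 6 (5.95, next 5.36) and of Aldh3a1 on GFP 6 (6.94, next 5.27), and a low value of Aldh5a1 on GFP 6 (7.72, next 7.87). GFP 6 and ChREBP 5 thus hold all 5. GFP 6 was among the GFP arrays with high adipocyte markers (9.37) and ChREBP 5 among the ChREBP arrays with high acinar markers (14.84), whose part in these values was not tested.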

How the results depend on the processing

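Aldh3a2, Aldh1l1, Aldh6a1 and Aldh8a1 kept their direction and their call in all 27 alternatives, over 0.54 to 0.83, -0.53 to -0.24, -0.51 to -0.22 and -0.47 to -0.18. Aldh4a1 (-0.40 to -0.10) and Aldh7a1 (-0.36 to -0.07) kept their direction in all 27 and lost the call in 1, the centring on hepatocyte markers. Members counted higher were 2 with repeated quantile normalization, 3 with it over 1 row per gene (Aldh1a7 0.16, Aldh2 0.15) and 5 with hepatocyte marker centring, which left 3 lower. At 1.5-fold, with limma or the methods' analysis of variance, 0 members were lower. Aldh3a2 was below that fold (0.585 on the log2 scale) with median centring (0.582) and with it over 1 row per gene (0.545). The same held without ChREBP 1 (0.581), ChREBP 3 (0.583), GFP 1 (0.573) or GFP 6 (0.570), and without GFP 6 and ChREBP 6 (0.569). Over all genes, 2645 were higher and 2730 lower (49.2% of calls higher). With median centring over 1 row per gene 5595 were lower (28.2% of calls higher), and with hepatocyte marker centring 10932 were higher and 618 lower (94.6%). At 1.5-fold there were 817 higher and 320 lower with limma, and 801 and 319 with the analysis of variance. Leaving out 1 array gave 1 member higher and 5 lower each time.

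Hepatocyte marker centring turned the sign of Aldh1a1 (0.16), Aldh1a2 (0.17), Aldh3b2 (0.079), Aldh5a1 (0.11), Adh1 (0.23), Acss2 (0.052), Bhmt (0.18) and Sgpl1 (0.11), none called at first, and of the called genes Aldh16a1 (0.052), Adh5 (0.0019), Cat (0.027), Cyp2e1 (0.092) and Rbp4 (0.081). Genes whose sign turned under other settings had not been called. They were Aldh1a1 (0.018), Adh1 (0.083), Mtr (-0.037) and Bhmt (0.033) with quantile normalization over 1 row per gene, and Mtr (-0.0076) with it over all rows. With median centring over 1 row per gene they were Aldh1b1 (-0.0098), Aldh1a3 (-0.019), Esd (-0.0062) and Mtr (-0.022), and with array weights Aldh3b3 (-0.080) and Adh1 (0.0040). Without ChREBP 4 and ChREBP 5 they were Aldh3b3 (-0.26) and Adh1 (0.011), and without GFP 6 and ChREBP 6 Aldh1b1 (-0.0010), Aldh1a2 (0.0076) and Mtr (-0.0066). Leaving out 1 array gave -0.00096 to 0.13 for Aldh1b1, -0.099 to 0.043 for Aldh1a2, -0.17 to 0.24 for Aldh3b3, -0.015 to 0.0030 for Adh1, -0.073 to 0.12 for Aldh2 minus Aldh1b1 and -0.18 to -0.14 for Aldh1a1 minus Aldh1a7. The cause of these turns was not tested. Aldh5a1 passed as lower with repeated quantile normalization (-0.18, adjusted p = 0.0210). The replicate block left 1 member higher and 5 lower (Aldh3a2 adjusted p = 0.000321), and it lost Cyp2e1 (adjusted p = 0.106) and Rbp4 (adjusted p = 0.0609). Deviations of same-numbered arrays correlated at -0.06 to 0.25, and 1 of 6 arrays correlated best with the array of its own number in the other group.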
